A study of Mus musculus with 2 samples.

Results

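The 9 genes described here encode the subunits of the transcription factor NF-kappaB and its close inhibitors and partners: Nfkb1, Nfkb2, Rel, Rela, Relb, Nfkbia, Nfkbiz, Bcl3 and Tnfaip3. They were chosen by name, out of 21853 protein-coding genes with a GENCODE transcription start site (TSS) in mm10, and all 9 were found in that annotation. Their open chromatin was read from ATAC-seq of primary hematopoietic stem cells, self-renewing marrow cells from which every blood lineage descends. In ATAC-seq the Tn5 transposase inserts adapters into accessible DNA, and peaks are regions where insertions pile up. The series held 1 group of 2 biological replicates, each made from 50000 cells. The mice were males of the strain C57BL/6J, 5 to 6 weeks old, and the labels name no mutant allele, treatment, sorting markers or second cell type. The labels give both libraries the same donor identifier and separate biosamples, and do not say whether the animals differed, so the spread between them may be technical; replicate 1 is labelled with 2 sequencing instruments and replicate 2 with none.

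NF-kappaB is a family of dimers that bind short DNA sites called kappaB sites. Rela, Rel and Relb carry a transactivation domain, whereas Nfkb1 and Nfkb2 encode precursors that are trimmed to DNA-binding subunits without one. In resting cells IkappaB proteins such as the product of Nfkbia hold the dimers in the cytoplasm until the IkappaB kinase marks them for destruction. In blood the pathway is best known for the response to infection, cytokines and antigen, and several of its own genes are textbook NF-kappaB targets that close a feedback loop.

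A gene counted as open where a peak of replicate 1 and one of replicate 2 both reached within 1 kb of any of its TSSs. The peaks were those of the thresholded lists, which pass a limit on the irreproducible discovery rate (IDR), a measure of how well peak ranks repeat. A higher −log10 IDR means better repeatability. Each replicate's lists were made from its own alignments, so its IDR does not measure agreement between replicates 1 and 2. A less strict list of each library, the pseudoreplicated list, held more peaks: 62918 and 64843, against 25141 and 24495 in the thresholded lists of replicates 1 and 2. The authors' signal value of a peak is given with its percentile among all peaks of its own list, since signal values are comparable between lists by rank alone. Read depth is not known from peak lists, so a missing peak means not called, and no spread beyond the 2 libraries can be given. No test was made on the 9 genes, and each count stands beside the share of all genes that meet the same rule. Of the stem cell markers 4 of 10 were open (Kit, Meis1, Hlf and Cd34), near the share of all protein-coding genes, 41.3%. Gata2 had no promoter peak in any list of the replicates. Among markers of other cells, 3 of 4 megakaryocyte, 3 of 6 endothelial and stromal, 1 of 5 B cell, 1 of 7 T and NK cell, 0 of 8 granulocyte and monocyte and 0 of 5 erythroid genes were open, and their part in the results was not tested. In the less strict lists, where 58.0% of all genes were open, 8 of the 10 stem cell markers were open. So were 3 of 4 megakaryocyte, 6 of 6 endothelial and stromal, 1 of 5 B cell, 2 of 7 T and NK cell, 4 of 8 granulocyte and monocyte and 0 of 5 erythroid genes.

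Matches to the kappaB site at the gene starts are shown first, because several of these genes are textbook NF-kappaB targets. Whether NF-kappaB acts through these matches was not tested. The RefSeq promoter table (GRCm38.p6, which is mm10) held 300 bp windows, from 250 bp before to 50 bp after a start, for 6 of the 9 genes; Nfkb1, Relb and Nfkbiz were not matched. The 10 bp kappaB consensus was searched on both strands, as GGG, a purine, 2 free bases, 2 pyrimidines and CC, together with a stricter form made of GGGA, 1 free base and TTTCC that is a subset of it. In the lines below 30 bases are given in the direction of the gene, with the matched bases in capitals; 11 capitals mark a pair of matches that overlap on opposite strands.
Nfkbia, 29 bases upstream of the start: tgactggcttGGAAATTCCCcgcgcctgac
Nfkb2, 39 and 38 bases upstream: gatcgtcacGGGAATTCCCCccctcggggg
Nfkb2, 11 bases upstream: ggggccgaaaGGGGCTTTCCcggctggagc
Nfkb2, at a start further inside the gene: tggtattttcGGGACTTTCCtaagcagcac
Rel, 92 and 91 bases upstream: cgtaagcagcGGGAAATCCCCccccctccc
Tnfaip3, 125 bases upstream: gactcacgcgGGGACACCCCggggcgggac
Tnfaip3, 12 bases upstream: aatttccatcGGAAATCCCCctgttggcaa
Bcl3, 2 bases past the start: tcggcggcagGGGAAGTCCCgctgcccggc
These sites lie on chr12:55492657-55492686 (minus strand) for Nfkbia, chr19:46304689-46304718, chr19:46304716-46304745 and chr19:46305695-46305724 (plus strand) for Nfkb2, chr11:23771042-23771071 (minus) for Rel, chr10:19015516-19015545 and chr10:19015403-19015432 (minus) for Tnfaip3 and chr7:19822734-19822763 (minus) for Bcl3. The matches of Bcl3 and those shown for Nfkb2 fall in annotated exons, and those of Nfkbia, Rel and Tnfaip3 fall in no protein-coding exon.

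Of the 6 matched genes, 5 had a kappaB match in at least 1 of their windows, all but Rela, and 2, Nfkbia and Nfkb2, held the stricter form. Counted by window, 7 of the 9 windows of these genes held a match, where 8.46% of all 32817 windows did, and 3 of 9 held the stricter form, against 0.411% of all windows. Nfkb2 gave 3 of the 9 windows and Tnfaip3 gave 2, and 2 of the Nfkb2 windows overlap and share 1 strict match, so the windows are not independent. For the other words a gene counted if any of its windows held the word, whereas the shares are by window. These counts and shares are therefore not like for like. All 6 genes also had a GC box (GGGCGG) in a window, against 35.6% of all windows. A RUNX word (TGTGGT) was found in 1 of 6 against 16.8% and an AP-1 word (TGANTCA) in 2 against 7.81%. The ETS word CGGAAGT (6.41% of all windows), the GATA word AGATAA (11.2%) and the interferon element, a pair of GAAA words 2 bases apart (3.43%), were in none of these genes' windows, and a CCAAT box, CCAAT, was in that of Nfkb2 (37.4%). A match describes the letters of the window and does not show that a factor binds there.

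Peaks covered these sites unevenly. The Nfkbia match at position 55492667 to 55492676 and both Tnfaip3 matches lay inside a thresholded peak of each replicate. The Rel pair lay inside a thresholded peak of replicate 1, whereas in replicate 2 a less strict peak ended within the pair, at 23771058, and no thresholded peak reached it. The pair near the first RefSeq start of Nfkb2 and the single match beside it lay in a thresholded peak of replicate 1 and in a less strict peak of replicate 2. The stricter Nfkb2 match, 10 bases past its start, was covered by the less strict list of replicate 1 alone. None of the 4 lists covered the Bcl3 match or a further Nfkb2 match that is not printed above. That Nfkb2 match (46305459 to 46305468) lies 236 bases upstream of the start further inside the gene, in no protein-coding exon.

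At their promoters 5 of the 9 genes were open (Rel, Relb, Nfkbia, Nfkbiz and Tnfaip3), 3 had a peak in 1 replicate (Nfkb1, Nfkb2 and Rela) and Bcl3 had none. Over all protein-coding genes 41.3% were open, 7.47% had a peak in 1 replicate and 51.2% had none. The count of 5 of 9 (55.6%, 95% Wilson interval 26.7 to 81.1, which covers counting of genes only) includes the share of all genes in its interval. In the less strict lists all 9 genes had a promoter peak in both replicates, where 58.0% of genes did. With the 50% strongest peaks of each thresholded list the count was 1, Nfkbiz, against 25.6% of all genes, and in the series-level thresholded list made from both libraries it was 9, against 51.9%.

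**Figure D1:**
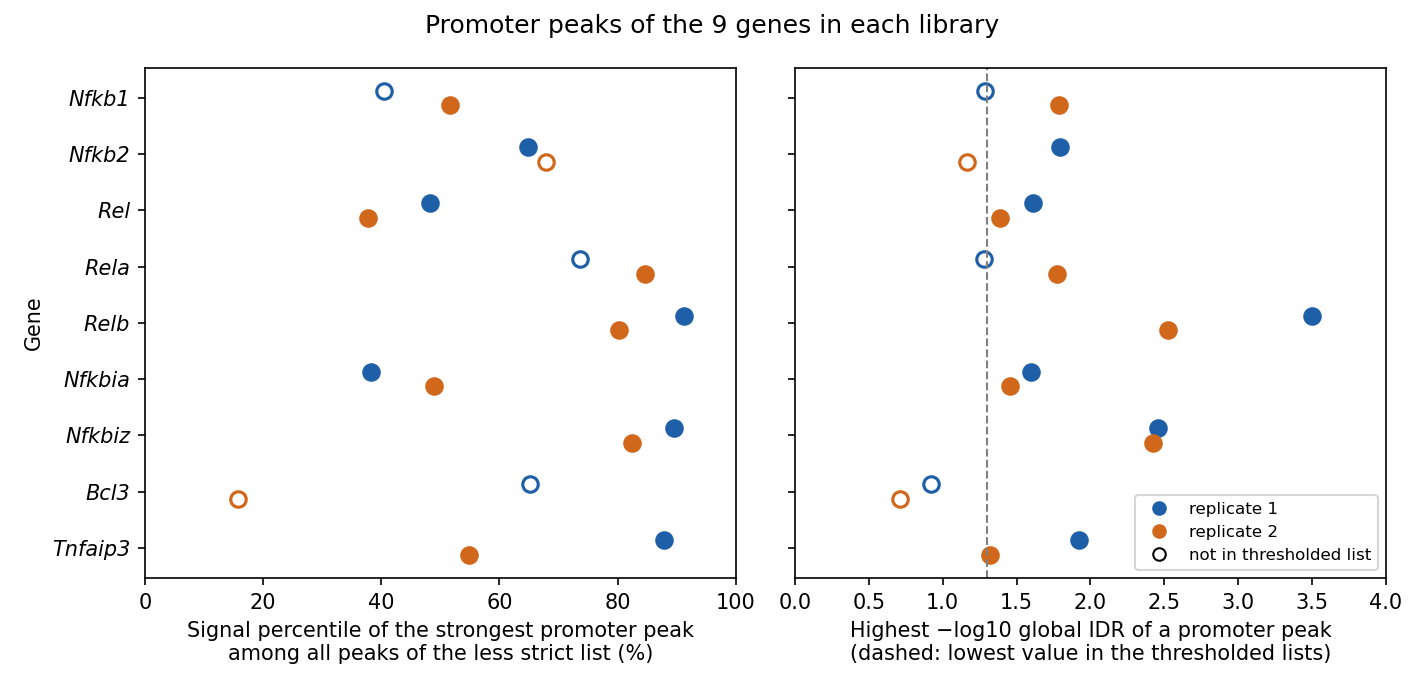
Each of the 9 genes has 1 point per replicate. The left panel gives the signal percentile of its strongest promoter peak in the less strict list of that replicate, and the right panel the highest −log10 global IDR of a promoter peak, with the lowest value of the thresholded lists (1.30) dashed; open points have no promoter peak in the thresholded list, and for Nfkb1 the left panel shows the most 5′ TSS and the right panel the internal one. Relb and Nfkbiz lie furthest right in the right panel. In the left panel Rela of replicate 2 (84.7) lies beyond Relb and Nfkbiz of that replicate (80.2 and 82.4). Nfkb1 and Rela of replicate 1 (1.29 and 1.28) sit just left of the dashed line.

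Among the subunits with a transactivation domain, Relb had the promoter peak with the highest −log10 IDR within each replicate. Relb, the partner of the Nfkb2 product in the noncanonical pathway, lies on chromosome 7 (19606217 to 19629438, minus strand). Its peak reached a signal of 10.9 in replicate 1 (77.9th percentile of the thresholded list) and 9.59 in replicate 2 (49.4th percentile). It was 878 and 985 bp wide, with summits 718 and 819 bp inside the gene from the most 5′ TSS and nearest to another annotated start. The −log10 IDR was 3.50 and 2.53, the highest of the 9 genes in each replicate.

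Rel, the c-Rel subunit of lymphoid and myeloid cells, was open with weak peaks. The gene has 1 annotated TSS on chromosome 11, at 23770970 on the minus strand. Replicate 1 had a peak with its summit 652 bp past the TSS (signal 5.65, 5.63rd percentile) and a second one over the TSS itself (4.80, 1.83rd percentile). Replicate 2 had only the first of these, 663 bp past the TSS (signal 5.64, 2.15th percentile). The peak over the TSS had a −log10 IDR of 1.30 in replicate 1, at the limit of the list, and 0.332 in replicate 2, where it was in the less strict list. With promoters narrowed to 500 bp either side, Rel was no longer open.

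Rela, the main transactivating subunit of the canonical pathway, was called in a single replicate. Replicate 2 had a peak of signal 10.4 (60.2nd percentile) whose summit lay 87 bp upstream of the most 5′ TSS on chromosome 19 (5637483, plus strand). Replicate 1 had its counterpart in the less strict list, with a signal of 7.78 (73.6th percentile of that list) and a summit 79 bp upstream. Its −log10 IDR of 1.28 fell just under the limit of 1.30. The summits of the replicates were therefore at nearly the same place although 1 replicate was called and the other was not.

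Both precursor genes were also called in 1 replicate each, in opposite ones. Nfkb2 on chromosome 19 (46304320 to 46312385, plus strand) had a peak in replicate 1 of signal 6.83 (20.3rd percentile) with its summit 258 bp past the most 5′ TSS. In replicate 2 the same place carried a peak of the less strict list, with a signal of 7.97 (67.9th percentile of that list, above the 64.9th of replicate 1) and a −log10 IDR of 1.17. The ranks in the less strict lists were thus close, and the call turned on the IDR limit within each replicate.

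Nfkb1 on chromosome 3 (135584655 to 135691547, minus strand) was called through a start inside the gene. Replicate 2 had a thresholded peak at a TSS 83.2 kb inside the gene, with a signal of 6.55 (6.43rd percentile). Replicate 1 had this internal peak in its less strict list, with a −log10 IDR of 1.29. Over the most 5′ TSS both replicates had a less strict peak, with signals of 5.12 and 6.60 (40.4th and 51.6th percentile of those lists) and −log10 IDR of 0.874 and 0.869. Counting the most 5′ TSS alone, Nfkb1 had no thresholded promoter peak in either replicate.

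The promoters of the inhibitors and brakes differed in rank. Nfkbiz, an inducible nuclear IkappaB protein, had the strongest of them, at its most 5′ TSS on chromosome 16 (55838899, minus strand). The signal was 10.5 in replicate 1 (73.9th percentile) and 9.94 in replicate 2 (54.5th percentile), in peaks of 1012 and 1002 bp with 4 summits each. The median percentiles over all open genes were 72.0 and 66.5. A second open start lay 16.7 kb inside the gene, with signals of 7.18 and 8.06. Nfkbiz was the only one of the 9 genes open among the 50% strongest peaks of both lists.

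Nfkbia, the gene for IkappaBalpha, was open near the bottom of both lists. Its peaks over the only TSS on chromosome 12 (55492647, minus strand) had signals of 4.94 (2.20th percentile) and 6.33 (5.05th percentile), with summits 57 and 61 bp past the TSS. The −log10 IDR was 1.59 and 1.45. The printed kappaB match lies under both peaks, with its centre 81 bp from the replicate 1 summit.

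Tnfaip3, which encodes the ubiquitin-editing enzyme A20, had the largest gap in rank between the replicates among the 5 open genes. The signal was 10.1 in replicate 1 (69.5th percentile) and 6.79 in replicate 2 (8.42nd percentile), in peaks that both start at 19015225 on chromosome 10. The −log10 IDR of replicate 2, 1.32, was just inside the limit. The strongest summit of replicate 1 fell 3 bp from the centre of the upstream kappaB match, and that of replicate 2 lay 168 bp from the replicate 1 summit.

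Bcl3, a nuclear IkappaB protein that acts with dimers of the trimmed subunits, had no promoter peak in the thresholded lists. Under the less strict calling, replicate 1 had a peak of signal 6.86 (65.1st percentile) and replicate 2 one of 4.33 (15.7th percentile), with −log10 IDR of 0.924 and 0.713. Their summits lay 1615 and 865 bp upstream of the most 5′ TSS on chromosome 7 (19822770, minus strand), and neither peak reached the start itself. The gene with the emptiest promoter was the one with the most distal peaks.

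Across the 5 open genes the median percentile of the strongest promoter peak was 69.5 in replicate 1 and 8.42 in replicate 2, against 72.0 and 66.5 over all 9030 open genes. The replicate 2 median rests on Tnfaip3, the middle gene, with Rel and Nfkbia below it and Relb and Nfkbiz above. By the observed to expected CpG ratio 1 kb either side of the most 5′ TSS, the 9 promoters ranged from 0.451 at Nfkbiz (47.3rd percentile of genes) to 0.908 at Rel (98.0th). The open genes stood at both ends of that range. Over all genes, split by this ratio into low, middle and high groups of near equal size, 9.25%, 49.3% and 65.4% were open. The low group held 0 of the 9 genes, the middle group 4 and the high group 5. The share of 41.3% over all genes includes the low group, so it is not matched to the 9 genes for CpG. Whether the 9 genes differ from genes of like CpG ratio was not tested.

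Away from promoters, the 9 genes had 17 distal peaks shared by both replicates, defined by a summit over 1 kb from every protein-coding TSS and within 50 kb of a TSS of the gene. Bcl3 had 5, Nfkb1 had 4, Relb, Nfkbia and Tnfaip3 had 2 each, Rela and Nfkbiz had 1 each, and Rel and Nfkb2 had none. At least 1 such peak was found for 7 of the 9 genes, against 43.9% of all genes, and at least 3 for 2 of the 9, against 6.61%. The median was 2 per gene, where the median over all genes was 0 and the mean 0.717. Counts this high were uncommon in the genome: 2.40% of genes had at least 4 and 0.792% had at least 5. A gene whose starts lie far apart is searched over a wider span, which these shares do not adjust for. Nfkb1 has a start 83.2 kb inside the gene. Of its peaks only the one 39.9 kb upstream lay within 50 kb of the most 5′ TSS. In the less strict lists the order changed, with 15 for Nfkb1 and 8 each for Bcl3 and Nfkbia, while Rel and Rela had 1 each. The mean over all genes in those lists was 2.36. Promoter peaks are counted by overlap and distal peaks by summit, so a peak can be in both classes. The less strict Bcl3 count includes its replicate 1 promoter peak, with a summit 1.61 kb upstream. Nfkb2 had no shared distal peak in the thresholded lists and 1 called in replicate 1 alone (signal 5.81), and 3 shared peaks within 50 kb lay at the promoters of Cuedc2 and Fbxl15.

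**Figure D2:**
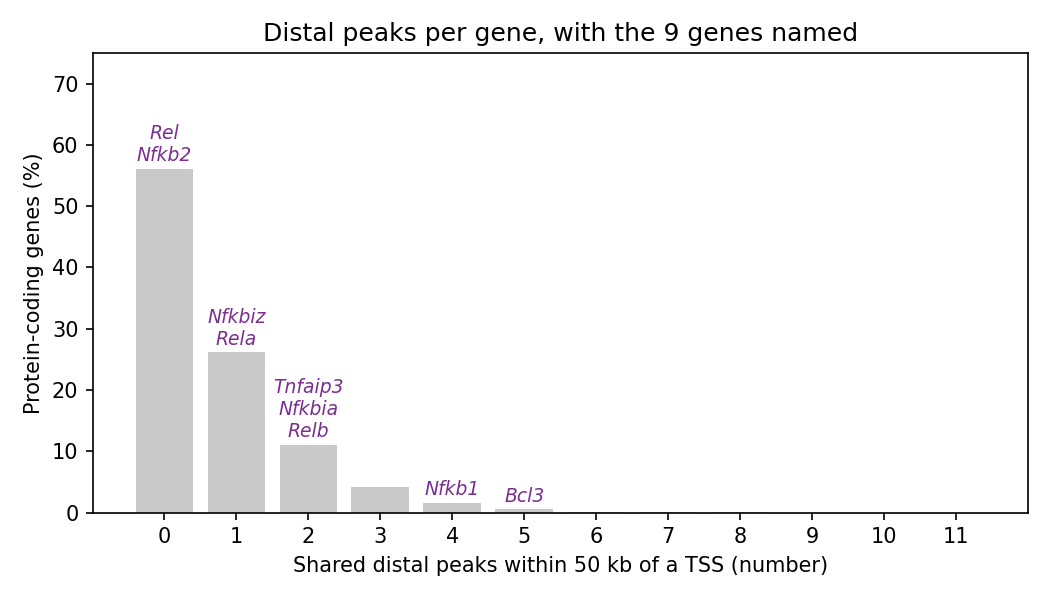
Bars give the percent of 21853 protein-coding genes with each number of shared distal peaks within 50 kb, and the 9 genes are written above their own number. Bcl3 (5) and Nfkb1 (4) stand to the right of most genes, and Rel and Nfkb2 are at 0.

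**Figure D3:**
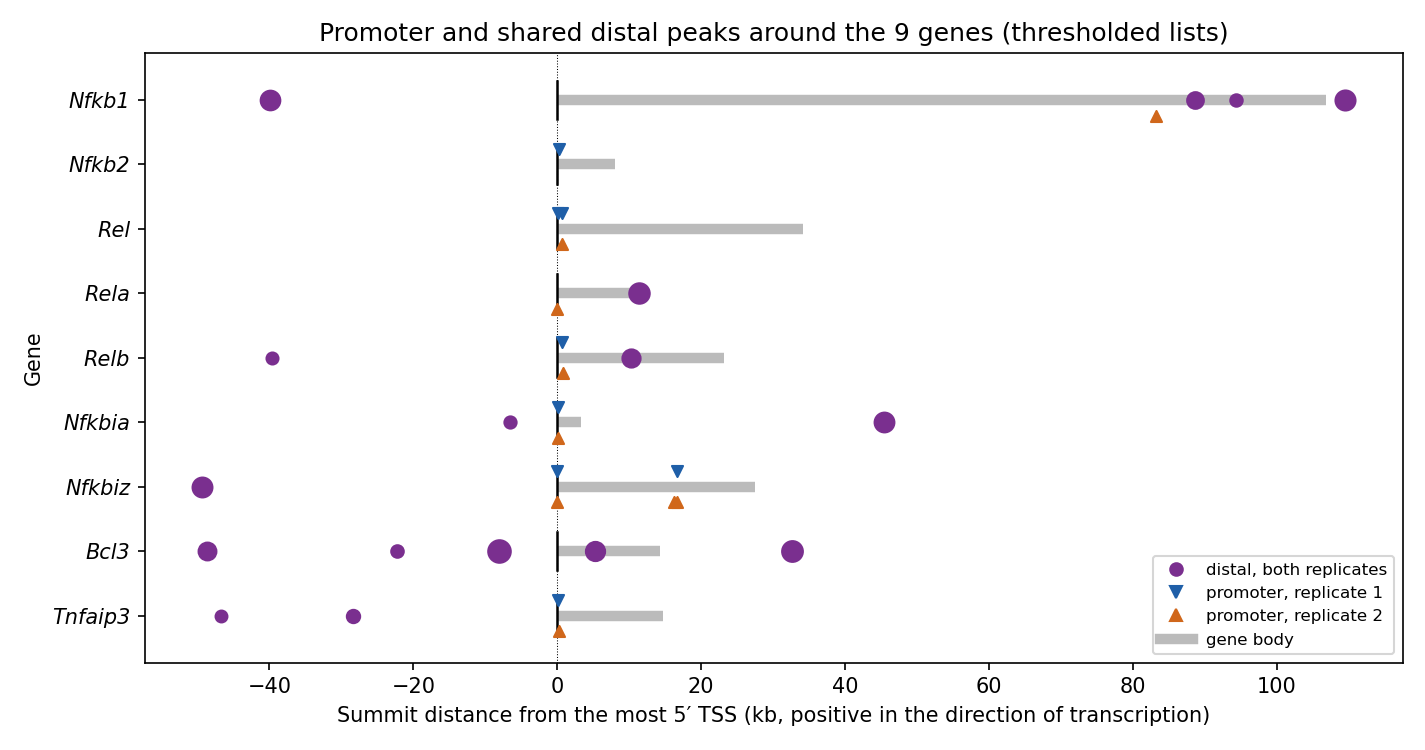
Each row is a gene drawn from its most 5′ TSS (0 kb) along the direction of transcription, with the gene body in grey. Circles are the 17 shared distal peaks, larger with a higher mean signal percentile, and triangles are thresholded promoter peaks of replicate 1 (above) and replicate 2 (below). The 5 circles of Bcl3 spread over both sides of its start, and both circles of Tnfaip3 lie upstream.

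Of these 17 peaks 11 lay outside protein-coding genes, 5 in introns and 1 in an exon; 9 were upstream of the gene, 4 inside it and 4 beyond its end. The nearest protein-coding TSS belonged to the same gene for 12 of them. Their median signal percentile was 54.0 in replicate 1 and 59.7 in replicate 2, close to the 52.4 and 54.0 of all 11202 shared distal peaks. Summits of the replicates lay a median of 16 bp apart, and 354 bp apart at 1 peak of Tnfaip3. A further 9 distal peaks were called in 1 replicate only, at 5 of the genes, and each overlapped a less strict peak of the other replicate.

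The strongest distal peak stood 8.14 kb upstream of Bcl3, at 19830673 to 19831318 on chromosome 7. It had a signal of 13.5 in replicate 1 (93.1st percentile) and 14.2 in replicate 2 (92.0th percentile), above every promoter peak of the 9 genes in the same lists. GENCODE places it outside genes, and RefSeq places it within the noncoding gene Gm34891. A second Bcl3 peak, 5.19 kb inside the gene in an intron (19817270 to 19817980), had signals of 9.66 and 10.5. It also lies within the noncoding gene Gm16174. Another (19789806 to 19790381) lay beyond the gene end, 32.6 kb from the most 5′ TSS, in an intron of Cblc, with signals of 12 and 10.9. The others were 22.3 and 48.7 kb upstream, and for both of them and the Cblc peak another gene had the nearest start. RefSeq places the peak 22.3 kb upstream within Gm34891 as well.

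At Nfkb1 3 of the 4 distal peaks lay in the last part of the gene or beyond it. The one with the highest mean percentile (135581675 to 135582163) lay beyond that end, 110 kb from the most 5′ TSS but 26.3 kb from the nearest internal one, with signals of 10.4 and 11.0 (72.7th and 68.0th percentile). An exonic peak (135602616 to 135603131) had 8.85 and 8.70, with summits at the same base in both replicates, and an intronic one (135596762 to 135597330) had 7.29 and 6.82. The fourth (135731343 to 135731636) was 39.9 kb upstream, with signals of 9.58 and 11.2. All 4 had an Nfkb1 start as their nearest TSS.

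Among the other genes, Rela had a peak just beyond its end, 11.4 kb from the most 5′ TSS (5648777 to 5649891), with signals of 10.1 and 11.9, the widest of the 17 at 1115 bp. This distal peak was shared although the Rela promoter was called in 1 replicate. Nfkbia had one 45.4 kb from its TSS, beyond the gene (55446559 to 55447460), with 10.2 and 10.9, far above its promoter signals of 4.94 and 6.33. A second, 6.59 kb upstream within the noncoding gene Gm36634, had 6.65 and 7.66. Relb had an intronic peak 10.3 kb inside the gene with 8.62 and 10.3, and one 39.6 kb upstream nearer to Clptm1 with 6.35 and 7.81. Tnfaip3 had both of its peaks upstream, at 28.4 kb (7.35 and 7.60) and 46.7 kb (6.65 and 7.36). The single Nfkbiz peak (11.0 and 10.3), 49.4 kb upstream, lay in an intron of Nxpe3, whose start was nearer.

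The sequences of 3 distal peaks outside protein-coding exons are given next, each in the direction of the gene: the summit of the strongest peak, with its GC box in capitals, the distal summit window that holds a kappaB match, and the stretch round the strict match in a distal peak, with the kappaB matches in capitals.
Bcl3, 8.14 kb upstream, chr7:19830861-19830961 (minus strand): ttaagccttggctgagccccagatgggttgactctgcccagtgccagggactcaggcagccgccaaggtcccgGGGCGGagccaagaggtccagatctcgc
Rela, beyond the gene end, chr19:5648861-5648961 (plus strand): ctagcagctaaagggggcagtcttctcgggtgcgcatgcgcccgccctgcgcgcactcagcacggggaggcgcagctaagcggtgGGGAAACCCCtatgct
Nfkbia, beyond the gene end, chr12:55446823-55446923 (minus strand): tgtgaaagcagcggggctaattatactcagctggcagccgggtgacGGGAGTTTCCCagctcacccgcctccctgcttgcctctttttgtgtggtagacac
The Rela match starts at 5648946, and its centre is 39 bp from the summit of replicate 1. The Nfkbia pair overlaps on opposite strands, and the centre of its strict match is 367 bp from the replicate 1 summit of its peak.

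In windows reaching 50 bp either side of the summits of the 23 shared peaks of these genes (6 over promoters and 17 distal), 2 held a kappaB match (8.70%, 95% Wilson interval 2.42 to 26.8), where 2.82% of all 19727 shared peaks did. They were the Tnfaip3 promoter and the Rela distal peak. At the summits of replicate 2 alone, without replicate 1, 0 of 29 windows held a match, and at those of replicate 1 alone 2 of 31 did. With windows reaching 100 bp either side the count was 5 of 23 (21.7%) against 5.84% of all shared peaks. With 250 bp either side it was 6 of 23 (26.1%) against 12.9% of all shared peaks. Over the whole peaks, 8 of 23 held 11 matches, 3 of them strict: in the promoter peak of Nfkbia, in its peak beyond the gene end and in the Nfkbiz promoter peak (55838860 to 55838869, 35 bp past the most 5′ TSS). The RUNX word was in 2 of 23 summit windows against 14.5% of all shared peaks, the GATA word in 1 against 2.73%, the AP-1 word in 2 against 4.22% and the ETS word in 0 against 4.44%. These shares pool promoter and distal peaks in other proportions than the 23. Both RUNX windows were distal (2 of 17), where 21.9% of all shared distal peaks and 4.84% of promoter peaks held the word. For AP-1 the distal and promoter shares were 6.05% and 1.81%, and for ETS 1.61% and 8.16%.

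The rest of the pathway was open more often than the 9 genes in count, with 24 of 34 genes (70.6%, 95% Wilson interval 53.8 to 83.2) against 41.3% of all genes. The interval covers counting of genes only, in a list chosen with earlier results of these data known. Neither the difference between the lists nor that from all genes was tested. The kinases and adaptors above the IkappaB kinase were all open, 7 of 7, among them Map3k7 (TAK1) and Map3k14 (NIK), and so were the 3 genes of the linear ubiquitin ligase, Rnf31, Rbck1 and Sharpin. Ikbkg, the regulatory subunit of the IkappaB kinase (NEMO), had the promoter with the highest mean percentile of this list, with signals of 17.2 and 17.4 (99.3rd and 98.9th percentile). Tab3 (13.7 and 15.8) and the ubiquitin ligase gene Traf6 (17.1 and 13.6) followed. Of the kinase genes Chuk and Ikbkg were open, Ikbkb had a peak in 1 replicate, and Ikbke and Tbk1 had none. Of the other IkappaB genes Nfkbib was open and Nfkbie and Nfkbid were called in 1 replicate each. Traf1, Traf3 and Tnip3 were also without a thresholded promoter peak, and Tnip3 had 5 shared distal peaks, as many as Bcl3.

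Textbook target genes of NF-kappaB were open in 9 of 25 cases (36.0%, 95% Wilson interval 20.2 to 55.5), against the same 41.3%. Ptgs2, the inducible cyclooxygenase, had the promoter with the highest mean percentile, with signals of 10.2 and 12.8, followed by Sod2 (9.33 and 11.1) and Bcl2l1 (10.4 and 9.91), which encodes the survival protein Bcl-xL. Neither replicate had a thresholded promoter peak at 12 genes: Tnf, Il1b, Ccl5, Cxcl1, Cxcl2, Icam1, Vcam1, Nos2, Cd40, Cd83, Ier3 and Cflar. Of these Tnf, Cxcl1, Cxcl2, Icam1, Ier3 and Cflar were open by the less strict lists. Those lists gave 19 of 25 target genes (76.0%) against 58.0% of all genes, so the targets went from below to above the share of all genes. Tnf and Ier3 had 3 shared distal peaks each.

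**Figure D4:**
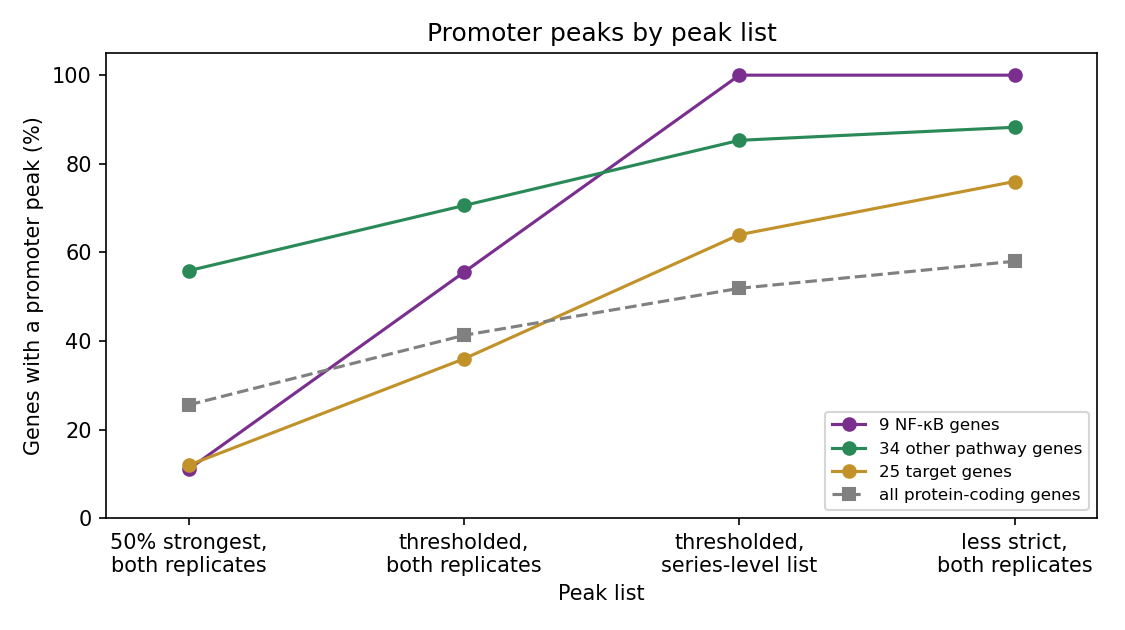
Lines give the percent of genes with a promoter peak in 4 sets of peaks, from the 50% strongest peaks of both replicates to the less strict lists of both, with the series-level thresholded list as a single list; grey squares are all protein-coding genes. The 9 NF-kappaB genes go from 1 of 9 to 9 of 9, from below to above all genes, and the 34 other pathway genes stay above all genes throughout, from 19 to 30 of 34.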

How the data were processed

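ATAC-seq peak lists of 2 replicates (1 group) were used, as deposited by the authors in mm10. Per the deposited file notes, a replicate's lists were made from its own alignments and the series-level list from both, with aligner, peak caller and Tn5 offsets not given in the sources used here. Columns were the authors' signal value per peak, the −log10 of its q-value (not printed), both deposited, and, from the deposited ranked lists, the −log10 global IDR as a score. Intervals listed with several summits were taken once, at the highest, and shared peaks overlap by at least 1 bp. TSSs are those of protein-coding transcripts in GENCODE M21. Python 3.11.15, NumPy 2.4.6, SciPy 1.17.1 and pysam 0.24.0 were used. The promoter window search was run on simulated peaks planted inside the window, which checks the code and not the calls reported here. The genes and lists were chosen with earlier results of these data known. Named genes were all 9, and of each other list the 3 with the highest mean percentile and up to 12 without a peak; others named show a role group, and some genes are not reported here. Alternatives changed the list, windows, overlap, TSS set, assignment and motif settings.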

Additional observations from a re-analysis of the deposited data

How the results depend on the processing

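Counts depended chiefly on how many peaks a list held. With the less strict lists 9 of the 9 genes, 19 of 25 targets and 49 distal peaks were counted. Over all genes 58.0% were open in those lists, with a mean of 2.36 distal peaks per gene. With the 50% strongest peaks the counts were 1, 3 and 9, against 25.6% and a mean of 0.274. The series-level list gave 9 genes, 16 targets and 34 distal peaks, against 51.9% and a mean of 1.62. Within 20 kb 8 distal peaks were counted, against a mean of 0.304 per gene. In 1 replicate alone 6 to 7 of the 9 genes, 25 to 27 other pathway genes and 10 to 12 targets were counted, where 44.1% to 46.0% of all genes were. Distal peaks numbered 20 to 23, against a mean of 0.976 to 1.0 per gene over all genes. The share of summit windows with a kappaB match ran from 0.0% to 6.45% in 1 replicate alone. With the stricter kappaB form it was 0.0%. The window of 250 bp either side of a summit was chosen after seeing the data. With windows of 100 bp either side it was 21.7%. Other planned settings moved the counts of genes and distal peaks by less than 1.5 times; single-gene calls were the same in 33 of 45 cases. No paired analysis was possible because there is 1 group. Read depth is unknown, so a missing peak is limited by the threshold.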
